A study of Sus scrofa with 18 samples.

Results

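Mitochondria make most of the ATP of a cell by passing electrons from NADH and succinate through complexes I to IV to oxygen, and by letting the protons pumped on the way flow back through ATP synthase, which is complex V. A small share of the subunits is encoded in mitochondrial DNA, while all others are encoded in the nucleus, made in the cytosol and imported, so that the messages of many chromosomes have to be made in matching amounts. White adipocytes hold fewer mitochondria than brown ones, and use them for fatty acid synthesis, glycerol supply and adipokine secretion as well as for ATP.

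The genes described here were the nuclear-encoded subunits of the 5 complexes. They were chosen by symbol alone, as the NDUFA, NDUFB, NDUFC, NDUFS and NDUFV genes of complex I, SDHA to SDHD of complex II, UQCR genes and CYC1 of complex III, COX4 to COX8 genes of complex IV and ATP5 genes of complex V without ATP5S and ATP5SL. The rule found 67 of the 29884 genes in the table, of which 36 belong to complex I, 4 to complex II, 2 to complex III, 8 to complex IV and 15 to complex V. The remaining 2, NDUFA4 and its paralogue NDUFA4L2, carry a complex I name but were kept apart, since NDUFA4 is now placed in complex IV.

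RNA of subcutaneous back fat (SAF) and of visceral fat next to the kidney (VAF) was sequenced from male Bama pigs, a miniature breed, aged 1, 3 or 6 months. There were 9 untreated pigs by the same sire, 3 per age, fasted before slaughter, and 18 libraries, named here by depot, month and number (SAF1-1 to VAF6-3). The replicates of a group therefore share a sire and were raised together, and it was not stated whether a SAF and a VAF library with the same number came from the same pig. Library VAF6-3 was left out of all tests, as the study did, so that VAF at 6 months rests on 2 libraries.

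The depth was 16404239 to 22857354 counts per library, and 66 of the 67 subunits had more than 100 counts in every library, the lowest being 105. The exception was COX8H, a subunit 8 gene of complex IV with 0 to 0.9 CPM per library (counts scaled to a library total of 1000000), which was too low to test. All libraries held the adipocyte markers, with a sum over 8 genes of 4918.1 to 18866.5 CPM. The lowest sums were those of VAF3-1 and VAF3-2, which also carried smooth muscle markers at 7550.4 and 6378.0 CPM against 285.3 to 1003.9 CPM in the others, and urothelial markers at 1429.1 and 540.8 CPM against 0.3 to 5.1 CPM. VAF3-3 was within the range of the others for these but was the library in which the kidney tubule genes UMOD and SLC34A1 were counted, at 3.16 and 7.46 CPM against 0 in the other 17. The age given by the sample label and by the library name differ for VAF6-1 (labelled 3 months) and VAF3-3 (labelled 6 months). The library names were followed, as the study's gene lists do, and values with the ages as labelled (VAF3-1, VAF3-2 and VAF6-1 against VAF6-2 and VAF6-3, with VAF3-3 left out) are given where they bear on VAF. SAF libraries other than SAF6-3 also differed from the VAF libraries and SAF6-3 in the study's read quality statistics, so that at 1 and 3 months depot and this technical difference cannot be told apart. At 6 months it is partly mixed with depot, through SAF6-1 and SAF6-2. Differences between SAF6-3 and these libraries cannot be told apart from it either.

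Levels were compared per kilobase of exon. All 66 tested subunits except NDUFA4L2 lay above the median of all tested genes, which was 3.9 CPM per kb, and their own median was 100.3 CPM per kb. Complex I had the lowest median of the complexes, with 77.6 CPM per kb over 36 subunits. Its members ran from 20.4 CPM per kb for NDUFA5 to 192.0 CPM per kb for NDUFB9, both accessory subunits, and the 7 core subunits that carry the redox centres had about the same median as the 29 accessory ones (81.0 and 75.6 CPM per kb). The medians of the other complexes were higher. In complex II, the flavoprotein SDHA was at 125.6, the iron-sulphur subunit SDHB at 166.4, and the membrane anchors SDHD and SDHC at 182.7 and 213.6 CPM per kb.

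The 2 members of complex III, the small subunits UQCRB and UQCR10, were at 168.2 and 239.0 CPM per kb. The complex IV members had a median of 210.6 CPM per kb and included the most abundant message of all, COX6A1, the widely expressed form of subunit 6A, at 485.7 CPM per kb. In complex V the catalytic head was led by the beta subunit ATP5B with 437.0 and the alpha subunit ATP5A1 with 354.0 CPM per kb, while ATP5L of the membrane part had the lowest level with 45.5 CPM per kb. The subunit c of the rotor ring is made from ATP5G1, ATP5G2 and ATP5G3, which encode the same mature protein with different import signals, and their messages were at 100.5, 46.4 and 326.6 CPM per kb. Before scaling by exon lengths of 893, 4478 and 697 bases, their mean CPM were 89.79, 207.71 and 227.61. A further 17 subunits, among them COX4I1, COX5A, CYC1 and UQCRFS1, were listed under identifiers without a symbol and so were not chosen by the rule. Of these, COX4I1, the main form of subunit 4, was at 506.2 CPM per kb and cytochrome c1 (CYC1), the haem subunit of complex III, at 153.8 CPM per kb.

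**Figure D1:**
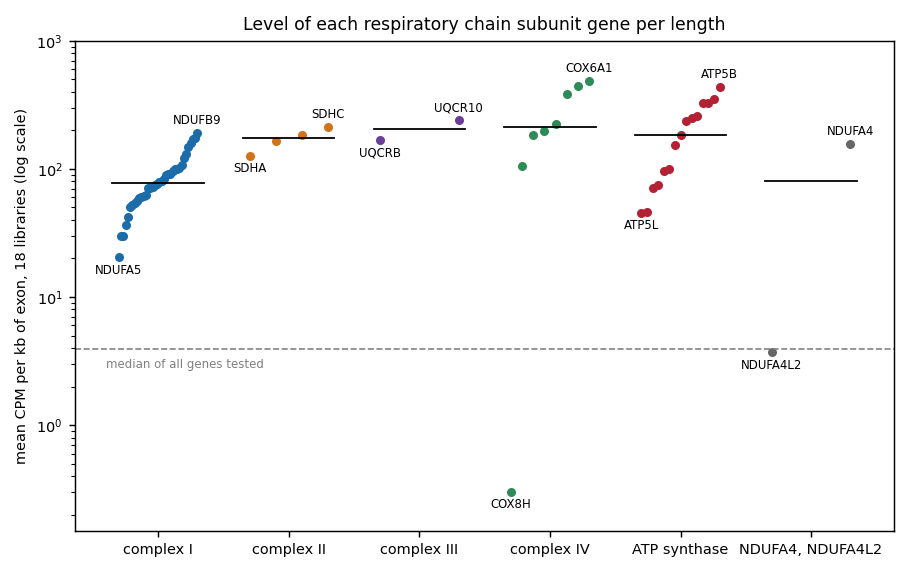
Level of each subunit in CPM per kb of exon (mean of 18 libraries, log axis), with a dot per gene, grouped by complex. Black lines are the medians of the complexes and the dashed line is the median of all tested genes, 3.9 CPM per kb; complex I, with a median of 77.6 CPM per kb, lies below the other complexes, and COX8H and NDUFA4L2 lie lowest.

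The genes are spread over 18 chromosomes and are short, with a median exon length of 843 bases against 3598 bases over 16657 tested genes. For 19 of them another annotated gene overlaps, and as the counting was not stated to use strand, reads of such pairs cannot be told apart. The 250 bases before the annotated start of each gene (RefSeq models on Sscrofa11.1) were searched on both strands for 4 short motifs of factors known to act on respiratory genes. The NRF1 motif GCGCANGCG, in which N is any base, was found before 12 of 67 members (17.9%) and before 6.59% of 19535 protein-coding genes. The GABPA motif CCGGAAG was found before 13 members (19.4%, against 7.77%), the ESRRA motif AAGGTCA before 7 (10.4%, against 3.2%) and the YY1 motif AAGATGGC before 4 (5.97%, against 1.49%). Before 14773 tested genes the shares were 8.2% for NRF1, 9.63% for GABPA, 3.13% for ESRRA and 1.78% for YY1. Each match is a description of letters and not a binding site. The stretches below show how the motifs sit before 5 members that return in the results or span several complexes, written 5′ to 3′ along the strand of the gene with the matches in capitals. NDUFB4 (complex I, chr13:139730584-139730613, minus strand) and UQCRB (complex III, chr4:40403213-40403241, plus strand) hold the NRF1 motif at a single place, which in NDUFB4 reads as a match on both strands with an overlap. SDHD (complex II, chr9:39790450-39790646, plus strand) holds, in order, a YY1 match, a pair of GABPA matches and an ESRRA match, all on the opposite strand. COX5B (complex IV, chr3:56632108-56632281, minus strand) holds an NRF1 match and a pair of GABPA matches along its own strand. COX7A2 (complex IV, chr1:90696696-90696745, plus strand) holds a GABPA match before an NRF1 match on the opposite strand.
NDUFB4: aaagtaccttGCGCATGCGCagatcgctac
SDHD: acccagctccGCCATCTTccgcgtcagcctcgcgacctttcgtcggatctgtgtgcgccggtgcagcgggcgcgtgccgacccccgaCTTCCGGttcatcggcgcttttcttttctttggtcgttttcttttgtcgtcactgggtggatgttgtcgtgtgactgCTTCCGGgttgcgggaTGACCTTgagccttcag
UQCRB: gccaaaactgCGCCTGCGCgagcgtcctc
COX5B: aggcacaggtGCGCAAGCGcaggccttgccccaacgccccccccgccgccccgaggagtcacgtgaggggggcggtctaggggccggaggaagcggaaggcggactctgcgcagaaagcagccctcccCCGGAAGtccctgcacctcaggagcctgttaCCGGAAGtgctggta
COX7A2: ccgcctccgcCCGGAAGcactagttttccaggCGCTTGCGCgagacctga

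The subunits moved together from library to library. The Pearson correlation of a subunit's log2 CPM with the mean of all other subunits had a median of 0.928 over 18 libraries and was above 0.8 for 54 of 66, as a description of libraries that share their depth and tissue make-up. For 16598 other genes the median was -0.013. The lowest values were those of NDUFS1 (0.539) and NDUFA4L2 (0.599). Part of this came from a pair of libraries, since without SAF6-3 and VAF6-3 the median over members was 0.827. The subunits without a symbol followed as closely (median 0.938), mitochondrial ribosomal proteins less so (0.796), and cytosolic ribosomal proteins stood at 0.407. The 5 genes outside the list with the highest correlation were COX5A (0.985) and COX7B (0.983), both complex IV subunits listed without a symbol, then FAM162A (0.98), MCRIP2 (0.98) and BYSL (0.978).

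SAF6-3 and VAF6-3 were low in every tested subunit. In SAF6-3 all 66 were below the mean of SAF6-1 and SAF6-2, by a median of -1.29 on the log2 scale (0.409-fold), while the median over all tested genes was 0.0. The difference ran from -2.16 for ATP5B to -0.24 for ATP5G2. It cannot be told apart from the read quality difference between SAF6-3 and these SAF libraries. In VAF6-3 all 66 were below the mean of VAF6-1 and VAF6-2, by a median of -1.71 (0.305-fold, all tested genes 0.01), with COX7A1 the lowest at -2.58. Every complex was lower, and the medians lay between -1.16 (complex I) and -1.43 (complex IV) in SAF6-3 and between -1.58 (complex I) and -2.02 (complex III) in VAF6-3. SAF6-3 was the lowest of the 9 SAF libraries for 58 of 66 subunits (22.3% of all genes) and VAF6-3 the lowest of the 9 VAF libraries for 63 (20.8% of all genes).

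The summed macrophage and leukocyte markers were highest of their depot in the same libraries. The sum over 8 genes was 511.7 CPM in SAF6-3 against 186.9 to 340.2 CPM in the other SAF libraries, and 1469.0 CPM in VAF6-3 against 286.7 to 697.5 CPM in the other VAF libraries, and 6 of the 8 reached 1 CPM in any library. Of the 8, the macrophage genes CD163 (252.58 and 817.61 CPM), CSF1R (157.47 and 408.39 CPM) and CD14 (42.28 and 109.94 CPM) were the highest of their depot there. The leukocyte gene PTPRC (22.79 and 55.82 CPM) and the macrophage gene CD68 (33.02 and 73.67 CPM) were not, the T cell marker CD3E was at 2.98 and 3.08 CPM and the B cell marker MS4A1 was below 1 CPM in every library. Their adipocyte marker sums were 11210.5 and 9895.1 CPM. The part of these differences in the low subunit levels was not tested, and in bulk tissue fewer cells of a type cannot be told apart from less RNA per cell. At the other end stood VAF6-1, the highest VAF library for 50 of 66 subunits (11.3% of all genes). Together the 67 genes took 0.455% of all counts in VAF6-3, 0.515% in SAF6-3 and 1.262% in VAF6-1.

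**Figure D2:**
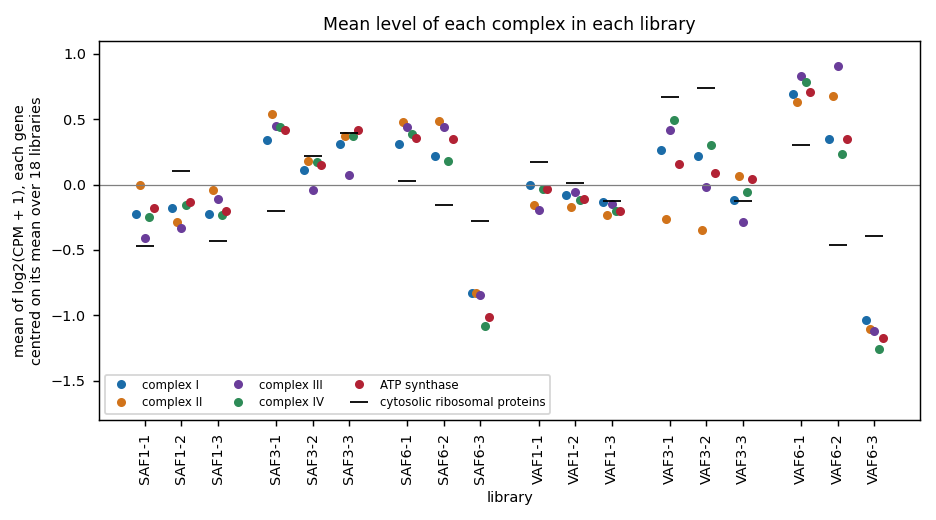
Mean over the subunits of each complex of log2(CPM + 1), centred on the mean of all 18 libraries, for each library (1 dot per complex, black dash for cytosolic ribosomal proteins). The complexes lie close together in most libraries and all fall to about -1 in SAF6-3 and VAF6-3, whereas in VAF3-1 and VAF3-2 complex II (-0.263 and -0.349) lies below complex IV (0.495 and 0.304) and in VAF6-2 above it (0.681 and 0.237).

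The complexes lay farther apart in VAF3-1, VAF3-2 and VAF6-2. In VAF3-1 and VAF3-2 the mean level of complex II, on a log2 scale centred over the libraries, was -0.263 and -0.349, while that of complex IV was 0.495 and 0.304. Citrate cycle enzymes stood with complex II (-0.269 and -0.434) and cytosolic ribosomal proteins with complex IV (0.667 and 0.74). In VAF3-3, with a smooth muscle marker sum of 450.2 CPM, complex II was at 0.066 and complex IV at -0.056. In VAF6-2, where that sum was also within the range of the other libraries, complex III was at 0.909, complex II at 0.681 and complex IV at 0.237. The part of the other tissues in this split was not tested.

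**Figure D3:**
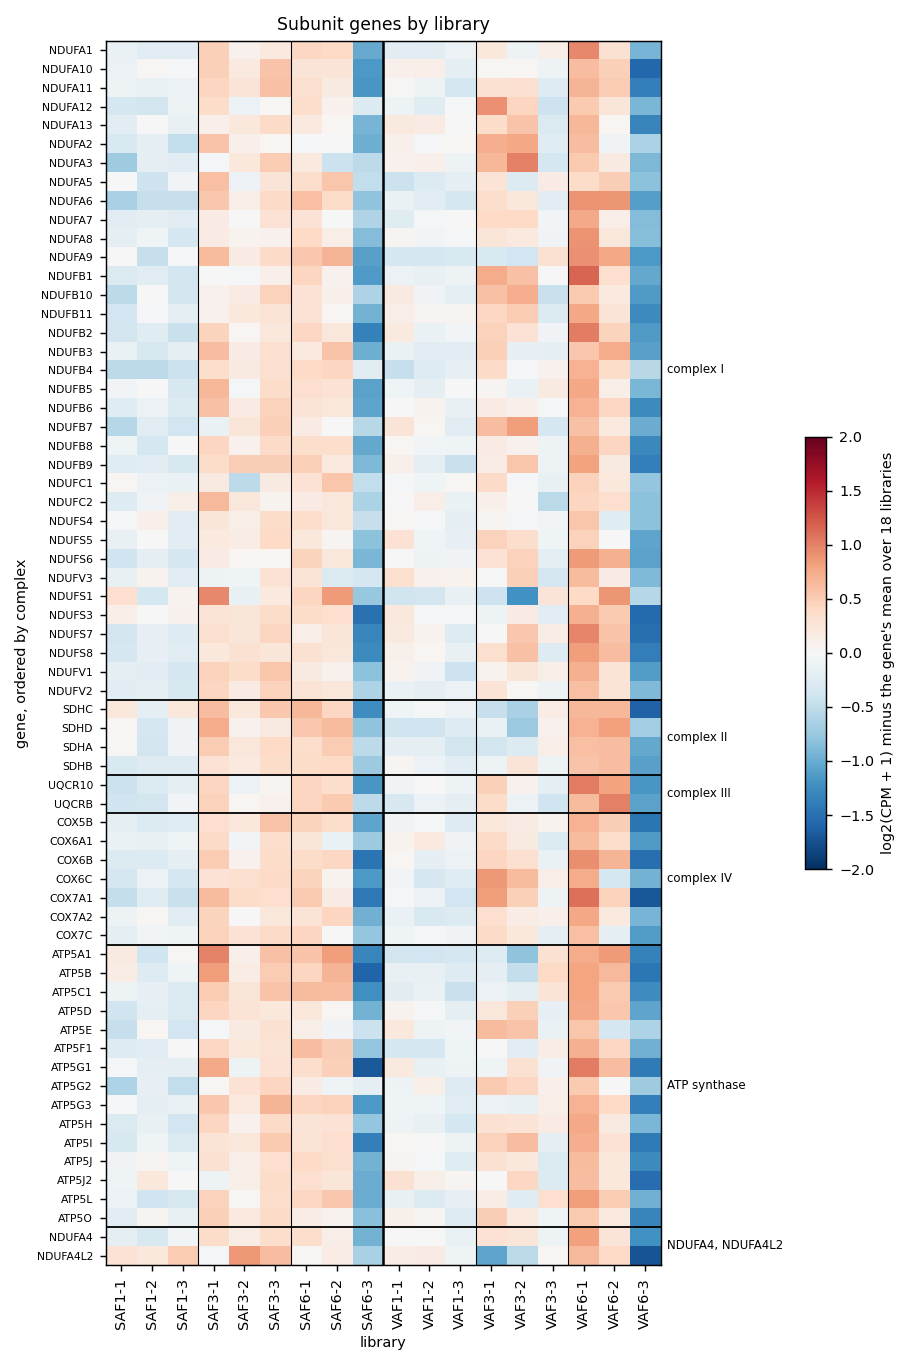
Heat map of 65 subunits (rows, by complex) in 18 libraries (columns), coloured by log2(CPM + 1) centred per gene, from -2 to 2. The columns of SAF6-3 and VAF6-3 are low from top to bottom, and that of VAF6-1 is high.

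The comparisons used edgeR's quasi-likelihood test on all genes, and a gene was called where its fold exceeded 1.5 and its p, adjusted by the Benjamini-Hochberg method over all genes, was under 0.05. No subunit was called in any of the 9 comparisons of ages and depots, so the values below describe sizes and the overlap of groups. The comparisons share groups and are not independent of each other.

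From 1 to 3 months in SAF, all 66 subunits had a positive log2 fold change (log2FC). The median was 0.50, against -0.02 over all genes, and the range was 0.06 to 0.90. In 52 of 66 every library at 3 months exceeded every library at 1 month, against 9.95% of all genes, and in 0 the reverse (9.06%). These were 29 of 36 in complex I, 3 of 4 in complex II, 2 of 2 in complex III, 6 of 7 in complex IV and 11 of 15 in complex V, and the complex medians lay between 0.46 and 0.59. The members whose groups overlapped included ATP5A1, SDHC, NDUFS1 and COX7A2. The count of calls by edgeR was 0 of 66 (0.024% of all genes), with 15 at an unadjusted p under 0.05 (7.71% of all genes), and DESeq2 called 1, NDUFB4 (0.578% of all genes).

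NDUFB4 (chr13:139724145-139730492), an accessory subunit of the membrane arm of complex I, had the smallest p. It was at 50.4, 50.5 and 53.9 CPM at 1 month and at 93.4, 82.7 and 91.7 CPM at 3 months. The groups were far apart and each was tight. Its log2FC was 0.80 ± 0.18 (SE, n = 3 and 3), with an edgeR adjusted p of 0.153. A gene on the other strand, LOC102162379, overlaps it. NDUFA6 (chr5:6562074-6567321), another accessory subunit, was at 43.3, 49.8 and 49.6 CPM at 1 month and at 74.3 to 100.5 CPM at 3 months. This was the highest log2FC of the comparison, 0.90 ± 0.27 (SE), with an adjusted p of 0.38 by edgeR. ATP5G2, the second by p, had a log2FC of 0.68 ± 0.21 (SE) and an adjusted p of 0.368 by edgeR.

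From 3 to 6 months in SAF the log2FC was negative for 64 of 66 subunits, with a median of -0.32 against 0.01 over all genes. This rested on SAF6-3: without it the median was 0.02, with 35 positive and 31 negative. Only 3 members, ATP5O, NDUFA2 and NDUFV1, had every 6-month library below every 3-month library (8.28% of all genes), and 0 had the reverse (6.87%). By edgeR 0 of 66 were called (0.126% of all genes), 2 had an unadjusted p under 0.05 (9.42% of all genes) and DESeq2 called 0 (1.3% of all genes). NDUFV1, the core subunit that binds NADH, was at 170.1, 158.3 and 180.0 CPM at 3 months and at 138.7, 129.6 and 69.3 CPM at 6 months. All 6-month values were the lower ones, with a log2FC of -0.60 ± 0.23 (SE) and an edgeR adjusted p of 0.382.

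Between 1 and 6 months in SAF, 57 of 66 were positive with a median of 0.19 (0.02 over all genes), and 2 subunits, NDUFB4 among them, had all 6-month libraries above all 1-month libraries (7.86% of all genes), while NDUFA4L2 had the reverse (10.9% of all genes). NDUFB4 was at 97.2, 98.5 and 62.7 CPM at 6 months, the last being SAF6-3, and its log2FC from 1 month was 0.73 ± 0.18 (SE) with an edgeR adjusted p of 0.0843. The edgeR calls were 0 of 66 (0.816% of all genes), with 3 at an unadjusted p under 0.05 (12.9%) and 1 call by DESeq2, again NDUFB4 (2.33% of all genes). SAF6-3 weighed on this comparison too. Without it the median was 0.50, with 65 of 66 positive, and edgeR called NDUFB4 (log2FC 0.92, adjusted p 0.0198) and NDUFA6 (1.03, adjusted p 0.0261), against 0.928% of all genes. Without SAF6-1 the median was -0.02.

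In VAF from 1 to 3 months, 57 of 66 subunits were positive, with a median log2FC of 0.23 against 0.01 over all genes. There were 9 members with every 3-month library above every 1-month library (5.86% of all genes) and 1 the other way (6.76% of all genes). The medians were 0.30 in complex IV and 0.23 in complexes I and V, and 0.09 in complex II. COX6C, a small complex IV subunit whose gene overlaps VPS13B, was at 181.0, 149.9 and 159.5 CPM at 1 month and at 345.1, 291.9 and 207.8 CPM at 3 months. The groups did not overlap, and the log2FC was 0.77 ± 0.34 (SE, n = 3 and 3) with an edgeR adjusted p of 0.304. NDUFB4 had the smallest p, with a log2FC of 0.44 ± 0.18 (SE) and an edgeR adjusted p of 0.275. The edgeR calls were 0 of 66 (1.67% of all genes), with 2 at an unadjusted p under 0.05 (14.4%) and 0 by DESeq2 (3.43%). Without VAF3-1 and VAF3-2, the libraries with smooth muscle and urothelial markers, the median was -0.07, and without VAF3-3 it was 0.33 and edgeR called NDUFA12 and NDUFA3, accessory subunits of complex I (8.76% of all genes). With the ages as labelled the median was 0.49.

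From 3 to 6 months in VAF, 58 of 66 were positive with a median of 0.46 against -0.04 over all genes. Without VAF6-1 the median was 0.22. Every 6-month library was above every 3-month library in 34 members and the reverse in 0, against 13.8% and 12.7% of all genes. The 34 held all 4 members of complex II and both of complex III, 17 of 36 in complex I, 8 of 15 in complex V and 2 of 7 in complex IV. The complex medians were 0.86 for complex II, 0.82 for complex III, 0.46 for complex V, 0.44 for complex I and 0.38 for complex IV. The 8 negative members were ATP5E, ATP5G2, COX6C, NDUFA12, NDUFA2, NDUFA3, NDUFB7 and NDUFS5.

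NDUFA4L2 (chr5:22540482-22548418), a paralogue of NDUFA4 known to be induced by hypoxia, was at 10.4, 15.4 and 23.5 CPM at 3 months and at 36.4 and 30.3 CPM at 6 months. The groups were apart, and VAF6-3 lay at 6.2 CPM, below the 3-month values. Its log2FC was 1.03 ± 0.33 (SE, n = 3 and 2), with an edgeR adjusted p of 0.124. SDHA (chr16:79838442-79862956), whose gene overlaps CCDC127, was at 250.1, 266.5 and 352.9 CPM at 3 months and at 487.8 and 495.8 CPM at 6 months, with VAF6-3 at 158.8 CPM. Both tested 6-month libraries were the higher ones, with a log2FC of 0.77 ± 0.26 (SE) and an edgeR adjusted p of 0.144. The edgeR calls were 0 of 66 (0.042% of all genes), with 12 at an unadjusted p under 0.05 (18.1%), and DESeq2 called 1 (4.27% of all genes). Without VAF3-3 edgeR called 3, with SDHA and NDUFA4L2 among them (12.9% of all genes), and without SAF6-3, which enters through the shared spread, 3, with NDUFS3 and NDUFA9 among them (1.87% of all genes).

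VAF at 6 against 1 month showed the widest difference between ages. All 66 log2FC were positive, with a median of 0.66 against -0.03 over all genes and a range of 0.16 to 1.18. In 55 of 66 both 6-month libraries exceeded all 1-month libraries (18.1% of all genes), and in 0 the reverse held (18.3%). They were 30 in complex I, 4 in complex II, 2 in complex III, 5 in complex IV and 12 in complex V. The others included ATP5E, COX6C and COX7C, which were lower in VAF6-2 than in VAF6-1. The complex medians ran from 0.59 in complex I to 1.01 in complex III. There were 32 members at an unadjusted p under 0.05 (13% of all genes), of which edgeR called 0 (0.09% of all genes) and DESeq2 called 3, NDUFA6, NDUFB4 and UQCRB (1.85% of all genes).

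NDUFA6 was at 62.6, 59.1 and 54.4 CPM at 1 month and at 129.0 and 127.3 CPM at 6 months, whereas VAF6-3 had 31.5 CPM. The tested groups were far apart, with a log2FC of 1.12 ± 0.30 (SE, n = 3 and 2) and an edgeR adjusted p of 0.158. UQCRB (chr4:40403272-40409080), a small subunit of complex III, was at 79.7, 91.9 and 86.5 CPM at 1 month and at 155.3 and 202.1 CPM at 6 months, against 46.7 CPM in VAF6-3. Again the tested groups were apart, with a log2FC of 1.05 ± 0.28 (SE) and an edgeR adjusted p of 0.166. ATP5A1 (chr1:95738789-95750835) was at 456.7, 448.4 and 467.1 CPM at 1 month and at 980.3 and 1063.2 CPM at 6 months, against 230.1 CPM in VAF6-3. VAF6-3 was in each case below the 1-month libraries while the other 6-month libraries were above them.

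With SAF6-3 left out of the fit, edgeR called 15 members between 1 and 6 months in VAF, all higher at 6 months (1.8% of all genes): NDUFA1, NDUFA6, NDUFA9, NDUFB4, NDUFS6, SDHA, SDHB, SDHD, UQCRB, UQCR10, COX5B, COX6B, ATP5C1, ATP5F1 and ATP5L. The VAF result itself turned on which libraries were taken as 6 months. With VAF6-3 included the median log2FC was 0.28 from 1 to 6 months and 0.06 from 3 to 6 months. With the ages as labelled it was -0.12 and -0.60, and edgeR then called 4 members lower at 6 than at 3 months, ATP5E, ATP5G2, COX6C and NDUFA2 (10.7% of all genes).

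**Figure D4:**
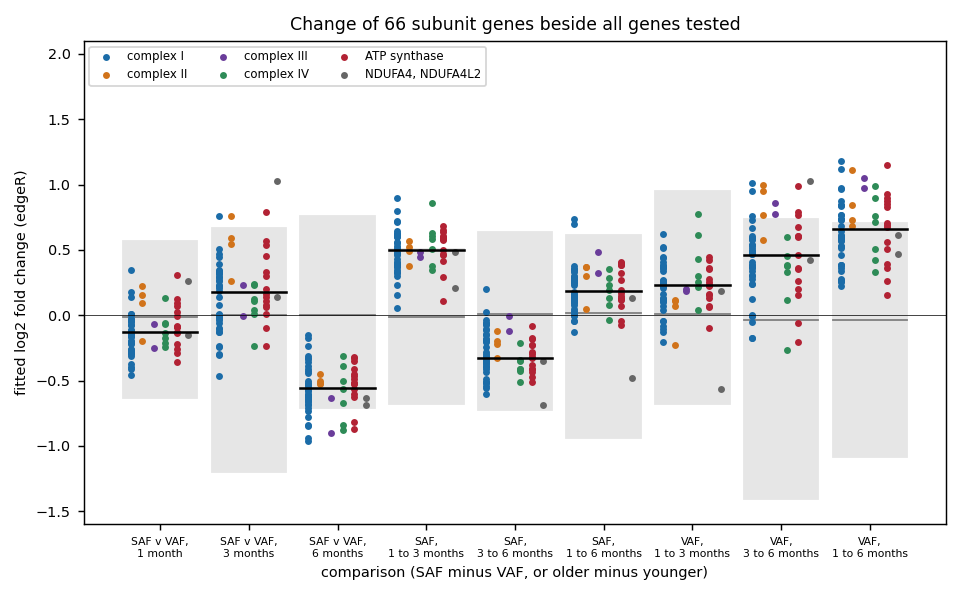
log2FC of the 66 subunits in the 9 comparisons (dots coloured by complex; black line, their median; grey box, the range from the 10th to the 90th percentile of all tested genes with their median as a grey line). All dots are above 0 in SAF from 1 to 3 months and in VAF from 1 to 6 months, and all are below 0 in SAF against VAF at 6 months; no dot passed the test.

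At 1 month the subunits were mostly a little lower in SAF than in VAF. In SAF against VAF the median log2FC was -0.13 (-0.01 over all genes), with 50 of 66 negative and a range of -0.46 to 0.34. The 1051 other tested genes under 1000 bases of exon had a median of -0.21. Over 16657 genes the log2FC followed exon length (Spearman's rho 0.28), and the part of length in the lower subunit values was not tested. All VAF libraries were above all SAF libraries in 18 members (8.46% of all genes), among them UQCR10, COX6B, SDHB and NDUFS8, and the reverse held for 1, NDUFA4L2 (8.29% of all genes). The smallest p belonged to ATP5G2 and NDUFB7, a small accessory subunit of complex I, which had log2FC of -0.36 ± 0.20 and -0.46 ± 0.28 (SE). By edgeR 0 of 66 were called, as were 0% of all genes, 0 had an unadjusted p under 0.05 (6.25% of all genes) and DESeq2 called 0 (0.31% of all genes).

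At 3 months 48 of 66 were positive in SAF against VAF, and the median was 0.18 (0.00 over all genes). In 10 members all SAF libraries were above all VAF libraries (7.77% of all genes) and in 0 the reverse (8.31%). Among the 10 were SDHA, SDHC and SDHD of complex II, NDUFS3, NDUFV1, NDUFS4 and NDUFA10 of complex I, and ATP5F1 and ATP5G3 of complex V. Complex II had the highest median of the 5 complexes, 0.57. The core subunits of complex I were all positive with a median of 0.32, while the accessory subunits split into 15 positive and 14 negative, with a median of 0.00. In this comparison the log2FC of the members followed exon length, with a Spearman's rho of 0.48 over 66 genes of the same libraries against 0.09 over 16657 genes (0.35 against -0.01 in VAF from 3 to 6 months), and the part of length in the contrast of core and accessory subunits was not tested. In complex V the subunits of the head and central stalk had a median of 0.45, and those of the membrane part and peripheral stalk 0.15. The edgeR calls were 0 of 66 (2.73% of all genes), 4 had an unadjusted p under 0.05 (18% of all genes), and DESeq2 called 1 (5.03% of all genes).

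That member was NDUFA4L2, which was at 22.1, 42.2 and 35.6 CPM in SAF and at 10.4, 15.4 and 23.5 CPM in VAF. The groups overlapped, as VAF3-3 exceeded SAF3-1. The log2FC was 1.03 ± 0.30 (SE, n = 3 and 3) with an edgeR adjusted p of 0.0792. SDHC (chr4:89135410-89169164) was at 404.9, 305.8 and 381.6 CPM in SAF and at 190.0, 167.7 and 290.7 CPM in VAF, the last being VAF3-3, with a log2FC of 0.76 ± 0.35 (SE) and an edgeR adjusted p of 0.274.

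The 3-month difference varied with the VAF libraries used. Without VAF3-1 and VAF3-2, VAF was a single library, 65 of 66 were positive, the median was 0.38, and complex II (0.32) lay no longer above complex IV (0.41). Without VAF3-3 the overall median was 0.04, complex II was at 0.72 and complex IV at -0.07, and edgeR called NDUFA4L2 (log2FC 1.34, adjusted p 0.00806, against 17.8% of all genes called). Under scaling by total counts the overall median was -0.05, beside -0.23 for all genes. With the ages as labelled the median over the subunits was -0.13, of the opposite sign.

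At 6 months all 66 subunits were negative in SAF against VAF. The median was -0.56 (0.00 over all genes), and both VAF libraries were above all SAF libraries in 27 members (13.4% of all genes), with the reverse in 0 (14%). The 1051 other tested genes under 1000 bases of exon had a median of -0.29. Spearman's rho of log2FC with exon length was 0.28 over 16657 genes, and the part of length was not tested. ATP5D, a subunit of the central stalk of ATP synthase, was at 341.7, 300.0 and 151.2 CPM in SAF and at 494.0 and 427.8 CPM in VAF, and NDUFS7, the core subunit with the last iron-sulphur cluster before ubiquinone, at 93.4, 101.4 and 34.1 CPM in SAF and 168.2 and 126.8 CPM in VAF. Both had VAF wholly above SAF, with SAF6-3 far below the other SAF libraries. The log2FC were -0.82 ± 0.28 and -0.97 ± 0.33 (SE, n = 3 and 2), with an edgeR adjusted p of 0.414 for each. The edgeR calls were 0 of 66 (0.012% of all genes), with 20 at an unadjusted p under 0.05 (10.1%) and 0 by DESeq2 (0.637%). The size followed the libraries that stood apart. The median was -0.23 without SAF6-3, -0.17 with VAF6-3 included and 0.20 with the ages as labelled. With the replicate number as a block, in a fit without VAF6-3, it was -0.235.

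The change of the depot difference with age was tested as an interaction. From 1 to 3 months it was positive for 61 of 66, with a median of 0.29 (0.02 over all genes). From 3 to 6 months it was negative for all 66, with a median of -0.77 (0.05 over all genes), and of the 5 complexes it was largest in complex II (-1.05). The edgeR calls were 0 of 66 in both (0% of all genes in both), with 1 and 19 at an unadjusted p under 0.05 (5.66% and 8.7% of all genes) and 0 by DESeq2 (0.442% and 0.467% of all genes). NDUFA4L2 had the smallest p of the later one, with an interaction of -1.72 ± 0.44 (SE) and an edgeR adjusted p of 0.509, and without VAF3-3 this was -2.01 with an adjusted p of 0.0199. It was at 36.4 and 30.3 CPM in VAF6-1 and VAF6-2 and at 23.1, 25.4 and 14.2 CPM in SAF at 6 months, the opposite order to that at 3 months. The depot medians over all subunits behind the later interaction varied with the libraries used. At 3 and 6 months they were 0.17 and -0.17 with VAF6-3 included, and -0.13 and 0.20 with the ages as labelled, a change of the opposite sign. Without SAF6-3 the 6-month median was -0.23.

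**Figure D5:**
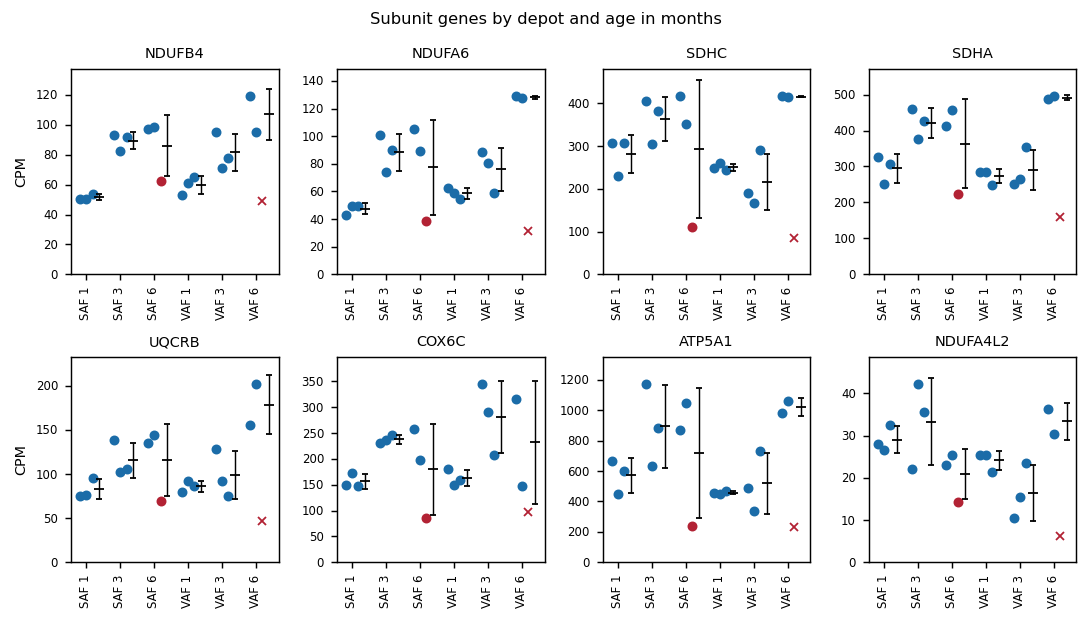
CPM of 8 subunits in each library, by depot and age (dots, libraries; bars, mean ± SD; red, SAF6-3 and VAF6-3, with VAF6-3 as a cross because it was not tested and does not enter the mean). NDUFB4 lies at 50.4 to 53.9 CPM in SAF at 1 month and at 82.7 to 93.4 CPM at 3 months, and in all 8 panels the red symbols lie below the other 6-month libraries.

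The paired isoforms differed in level per length. COX7A1, the heart and muscle form of subunit 7A, was at 0.953 (VAF6-3) to 2.35 (VAF3-1) times the level of COX7A2, the widely expressed form, per length. The mean ratio was 1.35 ± 0.08 in SAF at 1 month and 1.95 ± 0.19 at 3 months (SD, n = 3). ATP5G2 was at 0.097 to 0.286 times the level of ATP5G3, with the highest ratio in SAF6-3. This ratio rests on annotated exon lengths of 4478 and 697 bases, as the mean CPM were close (207.71 and 227.61). NDUFA4L2 never exceeded 0.038 times the level of NDUFA4, whose symbol has 2 annotated loci. Their exon lengths were 6639 and 994 bases and their mean CPM 24.68 and 156.09. The muscle form COX6A2 stayed at 0.006 to 0.021 times COX6A1. Their exon lengths were 3365 and 554 bases and their mean CPM 21.13 and 269.06. COX4I2, a form linked to low oxygen, was at 0.023 to 0.069 times COX4I1. Of the brown or beige adipocyte markers, CIDEA, a lipid droplet protein, was at 305.4 to 1099.35 CPM, and the others counted were far lower. DIO2 was at 1.81 to 13.87, PRDM16 at 1.84 to 10.37, PPARGC1A at 0.04 to 6.01 and ELOVL3 at 0.0 to 0.21 CPM. UCP1, which is known to be disrupted in pigs and so marks no cell type here, was at 0.0 CPM in 16 libraries.

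The other genes of the pathway were compared as lists. The 13 tested subunits without a symbol had medians close to those of the members: 0.51 in SAF from 1 to 3 months, 0.75 in VAF from 1 to 6 months and -0.56 between depots at 6 months. CYC1 was at 161.19 ± 20.63 CPM in VAF at 1 month (SD, n = 3) and at 345.26 ± 45.56 CPM at 6 months (n = 2). Assembly factors of the complexes (31 tested) had smaller medians of the same sign in those comparisons, 0.27, 0.51 and -0.32. Mitochondrial ribosomal proteins (76) were at 0.37, 0.41 and -0.40 and citrate cycle enzymes (14) at 0.30, 0.67 and -0.42. By edgeR 0 genes of these 4 lists were called in any comparison (0% to 2.73% of all genes per comparison). In VAF from 1 to 6 months, 7 of the 13 subunits without a symbol, 8 of 31 assembly factors, 22 of 76 mitochondrial ribosomal proteins and 9 of 14 citrate cycle enzymes had an unadjusted p under 0.05 (13% of all genes). DESeq2 called 0, 1, 4 and 1 of them in that comparison (1.85% of all genes), and 0, 7, 8 and 3 over all 9 (0.31% to 5.03% of all genes per comparison).

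Cytosolic ribosomal proteins (83), the short abundant genes set beside the members, had 0.41 in SAF from 1 to 3 months but -0.08 in VAF from 1 to 6 months. Over the 9 comparisons 0 were called by edgeR (0% to 2.73% of all genes) or DESeq2 (0.31% to 5.03%). At most 11 of 83 had an unadjusted p under 0.05, in VAF from 1 to 3 months (14.4% of all genes). The 1051 other tested genes under 1000 bases of exon had 0.16 in SAF from 1 to 3 months and 0.04 in VAF from 1 to 6 months. In SAF against VAF these short genes had -0.21, -0.195 and -0.29 at 1, 3 and 6 months. The 12 tested mitochondrially encoded genes had medians of 0.20 in SAF from 1 to 3 months, 0.845 in VAF from 1 to 6 months and 0.10 between depots at 6 months. In VAF they had -0.41 from 1 to 3 months and 1.29 from 3 to 6 months. The sign of their median was opposite to that of the members between depots at 1 and 6 months, in SAF from 3 to 6 months and in VAF from 1 to 3 months. In the other comparisons it was the same. At 3 months they had a median of 1.27 in SAF against VAF, with 1, ND6, called by edgeR (2.73% of all genes), 11 at an unadjusted p under 0.05 (18%) and 7 called by DESeq2 (5.03%). DESeq2 also called 7 of them in VAF from 3 to 6 months (4.27% of all genes).

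Of the regulators of mitochondrial biogenesis (15 genes) edgeR called 0 in any comparison (0% to 2.73% of all genes per comparison). At most 5 had an unadjusted p under 0.05, in VAF from 3 to 6 months (18.1% of all genes). DESeq2 made 3 calls over the 9 comparisons, for PPARGC1A and PPARGC1B (0.31% to 5.03% of all genes per comparison). ESRRA, a nuclear receptor that drives respiratory genes, was at 38.50, 59.00 and 51.09 CPM in SAF and 49.99, 54.61 and 93.80 CPM in VAF at 1, 3 and 6 months. It was low in SAF6-3 (27.80 CPM) and VAF6-3 (31.41 CPM). PPARGC1B, a coactivator of ESRRA, was at 9.83 CPM in VAF at 3 months and 21.89 CPM at 6 months, with an edgeR adjusted p of 0.0895, the smallest of the list. PPARGC1A was low, with group means of 0.24 to 3.63 CPM, and its highest values were in VAF3-1 and VAF3-2 (6.01 and 4.84 CPM against 0.04 CPM in VAF3-3). NRF1 and GABPA, whose motifs were searched above, ranged over group means of 15.09 to 18.39 CPM and 28.61 to 41.49 CPM.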

How the data were processed

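For each TruSeq library the authors cleaned paired reads (fastp), mapped them to the Sscrofa11.1 genome (HISAT2 2.0.4) and counted them per gene (HTSeq); the deposited values are raw counts. Which annotation release was used, and whether counting used strand, is not given in the sources used here. Genes were filtered with filterByExpr and scaled with TMM, and 6 groups (17 libraries, without VAF6-3) were fitted in a single model with edgeR 4.0.16 (quasi-likelihood, R 4.3.3), giving 9 comparisons of depots and ages and 2 interactions, with 16664 genes tested. DESeq2 1.42.0, other scalings, no filter, the libraries of the 2 groups only, VAF6-3 included, a block for the replicate number, ages as labelled and each library left out in turn were run as alternatives, and the scripts were tested on simulated counts. Called means an adjusted p under 0.05 and a fold above 1.5 (interactions, adjusted p alone). Log2FC are SAF minus VAF or older minus younger. CPM per kb used the union of exons of the RefSeq annotation; centred values used log2(CPM + 1). Promoter sequences were cut from the RefSeq genome. Members named were the 2 with the smallest p per comparison, isoform pairs, catalytic subunits and the extremes per complex, and others were picked after their values were seen; 1 subunit enters counts and medians but is not reported by name here. The members, lists and design were chosen with earlier results of these data known. With 3 pigs per age and the pig behind each number not stated, p-values measure the spread between these libraries.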

Additional observations from a re-analysis of the deposited data

How the results depend on the processing

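The edgeR count of called subunits was 0 of 66 in all 9 comparisons and both interactions, and it was also 0 with size factors or total counts as scaling, without a filter on low counts, without a limit on the fold and with VAF6-3 included. DESeq2 called 1 subunit in SAF against VAF at 3 months, 1 in SAF from 1 to 3 months, 1 in SAF from 1 to 6 months, 1 in VAF from 3 to 6 months and 3 in VAF from 1 to 6 months. Of all genes it called 5.03%, 0.578%, 2.33%, 4.27% and 1.85% in the same order. With the libraries of the 2 groups only, 3 were called in VAF from 1 to 6 months (0.936% of all genes), and with the ages as labelled 4 in VAF from 3 to 6 months (10.7% of all genes), where the log2FC of NDUFA4L2 became -0.188. The replicate number as a block gave 1 call at 3 months between depots (NDUFA4L2, log2FC 1.05, edgeR adjusted p 0.0478, 1.39% of all genes) and changed no other count. Same-numbered SAF and VAF libraries had correlations of their deviations of -0.053 to 0.303 at 1 month and 0.044 to 0.386 at 3 months. At 6 months, with VAF6-3, these were 0.45 to 0.633. Differently numbered libraries had -0.285 to 0.2, -0.382 to 0.14 and -0.544 to 0.146 at 1, 3 and 6 months. The ranges overlap at 1 and 3 months, so these values do not settle whether the numbers pair the libraries there. At 6 months the blocked count was 0, in a fit without VAF6-3, where SAF6-3 has no library of the same number. The blocked median of SAF against VAF there was -0.235, beside -0.56 without the block. Without VAF6-3 the same-numbered correlations at 6 months were 0.255 and 0.312. Leaving out each library in turn gave 0 to 1 calls in SAF against VAF at 3 months, 0 to 1 in SAF from 1 to 3 months, 0 to 2 in SAF from 1 to 6 months, 0 to 2 in VAF from 1 to 3 months, 0 to 3 in VAF from 3 to 6 months, 0 to 15 in VAF from 1 to 6 months and 0 to 1 in the interaction from 3 to 6 months. Of these, 15 came without SAF6-3. Without SAF6-3, 0.145% of all genes were called in SAF from 1 to 3 months and 0.928% from 1 to 6 months. In VAF they were 1.87% from 3 to 6 months and 1.8% from 1 to 6 months. Without VAF3-3 the shares were 17.8% in SAF against VAF at 3 months, 8.76% in VAF from 1 to 3 months, 12.9% from 3 to 6 months and 2.38% in the later interaction. Without both SAF6-3 and VAF3-3, chosen after the data were seen, 12, 2, 11, 10, 16, 32 and 2 subunits were called in the same order, of 22.3%, 0.617%, 2.43%, 12.3%, 18.2%, 3.79% and 2.5% of all genes. Without VAF3-1 and VAF3-2, also chosen after the data were seen, 0 were called. The cause of these shifts was not tested beyond the libraries named.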
